A study of Mus musculus with 4 samples.

Results

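Transcripts of 6 myeloid surface receptor genes were followed in nuclei of mouse back skin before and 1 day after wounding. The genes were Trem1, Trem2, Trem3, Cd300lf, Cd300a and Clec4d, 6 of the 32285 genes counted, each found by its symbol in all 4 libraries. They were selected on their wounded and unwounded levels in these same libraries, so levels and folds are a description and carry no test. All mice were wild type, 8 weeks old and of the inbred strain C57BL/6. Intact back skin of 2 mice gave the 2 unwounded libraries. Excisional wounds through the full thickness of the back skin, harvested from 2 other mice 1 day later, gave the 2 wounded libraries, and whether a library pooled several wounds of its mouse is not given. Each library held RNA of isolated nuclei of mixed skin cells, so cytoplasmic transcripts were counted only where they came along with the nuclei. In mixed tissue, more cells of a type and more RNA per cell cannot be told apart.

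TREM, CD300 and C-type lectin receptors sit mainly on neutrophils, monocytes, macrophages and dendritic cells, and set how strongly these cells respond. Activating members have short tails and signal through small adaptors, Tyrobp (DAP12) or Fcer1g (the Fc receptor gamma chain), which pass the signal to Src family kinases and Syk. Inhibitory members carry motifs in their own tails that recruit the phosphatases Ptpn6 and Ptpn11. In skin wounds, neutrophils are the first blood leukocytes to enter, followed by monocytes.

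No RefSeq promoter was found for Trem3. The bases just before the transcription start are shown for 3 of the other 5 members, whose levels differed in kind. These are Trem1, the next gene to Trem3 on its chromosome, Cd300lf, which was almost silent in intact skin, and Cd300a, which was already expressed there. Each run is the 250 bases before the start, 5′ to 3′ on the gene's strand, from RefSeq (GRCm38.p6). The windows are chr17:48232489-48232738 on the plus strand for Trem1, chr11:115133993-115134242 on the minus strand for Cd300lf and chr11:114889791-114890040 on the plus strand for Cd300a. Capitals mark matches, on either strand, to 4 short motifs of factors active in myeloid cells or of the core promoter.
Trem1: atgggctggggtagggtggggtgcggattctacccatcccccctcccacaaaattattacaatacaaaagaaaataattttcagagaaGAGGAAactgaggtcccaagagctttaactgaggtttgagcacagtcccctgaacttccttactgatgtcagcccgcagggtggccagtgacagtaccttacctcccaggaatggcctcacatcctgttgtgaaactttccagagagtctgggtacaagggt
Cd300lf: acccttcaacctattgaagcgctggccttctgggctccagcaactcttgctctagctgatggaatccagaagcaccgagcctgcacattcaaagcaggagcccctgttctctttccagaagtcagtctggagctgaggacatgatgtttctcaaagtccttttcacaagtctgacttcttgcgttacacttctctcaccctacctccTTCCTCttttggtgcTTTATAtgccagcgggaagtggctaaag
Cd300a: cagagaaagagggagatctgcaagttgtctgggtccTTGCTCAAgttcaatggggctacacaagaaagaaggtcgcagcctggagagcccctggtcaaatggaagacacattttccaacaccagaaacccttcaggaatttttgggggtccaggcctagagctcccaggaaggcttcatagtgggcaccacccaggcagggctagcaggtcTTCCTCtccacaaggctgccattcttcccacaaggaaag
The motifs were GAGGAA, the core of sites bound by the myeloid factor PU.1, TTGCNNAA (C/EBP), TGANTCA (AP-1) and TATAAA (the TATA box). GAGGAA occurred once in each of the 3 windows, starting 162 bases before the start in Trem1, and on the opposite strand 43 bases before it in Cd300lf and 39 bases before it in Cd300a. Of 32851 windows of the same length, 23.3% held GAGGAA, 9.56% TTGCNNAA, 6.75% TGANTCA and 12.4% TATAAA on either strand. Cd300lf also held TATAAA on the opposite strand, 28 bases before the start, and Cd300a held TTGCNNAA 214 bases before it. None of the matches overlapped another. A match shows only that the letters are there.

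Depth and background differed between the groups. The nuclei analysed, with at least 200 genes each, numbered 6575 and 9001 in unwounded and 2297 and 3706 in wounded replicates 1 and 2, with median UMIs (counted molecules) of 907, 469, 360 and 303. Wounded libraries also held 2236 and 11745 barcodes with at least 100 but under 200 genes (low-gene barcodes), against 1 and 69 in the unwounded ones. Between 10 and 58 barcode sequences were shared by any 2 libraries, at most 0.589% of the smaller. The 1466 olfactory and vomeronasal receptor genes, which serve sensory neurons of the nose, lay at 0.551 and 0.509 CPM (counts scaled to the library's total) per kilobase in wounded libraries, against 0.00737 and 0.0103 in unwounded ones. A wounded level divided by this density times the length of the gene is called observed over length-expected. It is given for each member and for many of the other genes. Levels printed without it, among them all cluster levels, are not set against this density. Among 2079 protein-coding genes of 5 to 20 kb under 1 CPM in both unwounded libraries, called reference genes here, the median of this ratio was 0.969 and 1.00 in wounded replicates 1 and 2. The 95th percentile was 3.50 and 3.55.

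Trem3, an activating receptor of mouse macrophages that signals through DAP12, had the highest wounded level per length of the 6. Its gene (chromosome 17, 48247777 to 48258841, plus strand, GRCm38) had 0 UMIs in unwounded replicate 1, which allows up to 0.363 CPM, and 3 UMIs or 0.463 CPM in unwounded replicate 2. It had 389 UMIs in wounded replicate 1, 327 CPM with an exact 95% Poisson interval of 295 to 361, and 432 UMIs in wounded replicate 2, 320 CPM (290 to 351). Both wounded libraries were far above both unwounded ones and close to each other. The means were 0.232 ± 0.328 and 323 ± 5.15 CPM (SD, n = 2 mice per group). Summed over the libraries of each group, as in every wounded to unwounded ratio and lower bound of a fold given here, the ratio of counts per total was 1589 with a counting interval of 542 to 7722. Observed over length-expected was 53.7 and 56.7. Of the 2079 reference genes 1 was higher in each wounded library, the gene model Gm10717 at 89.8 and 71.4, named after its values were seen.

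Trem1, which amplifies inflammatory signals in neutrophils and monocytes, starts the same cluster (chromosome 17, 48232768 to 48246924), and its annotated end lies 852 bases before the start of Trem3. It had 0 UMIs in both unwounded libraries, which allows up to 0.363 and 0.463 CPM. The wounded libraries held 7 and 13 UMIs, or 5.89 CPM (2.37 to 12.1) and 9.62 CPM (5.12 to 16.5). The groups did not overlap, with a wounded mean of 7.75 ± 2.64 CPM. Per summed total, the 20 wounded UMIs were at least 38.7-fold higher than 3 counts over the unwounded group. Observed over length-expected was 0.755 and 1.33, near the middle of the reference genes, of which 1265 and 733 were higher. Per length, the level of Trem3 in the same libraries was thus many times that of its neighbour.

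Trem2, a lipid-sensing receptor of macrophages, lies further along the cluster (chromosome 17, 48346401 to 48354147). It had 2 UMIs in unwounded replicate 1 (0.242 CPM) and none in unwounded replicate 2. It had 3 UMIs (2.52 CPM, 0.520 to 7.37) and 8 UMIs (5.92 CPM, 2.56 to 11.7) in the wounded libraries. The wounded to unwounded ratio was 31.9, with a counting interval of 6.97 to 297, and observed over length-expected was 0.591 and 1.501. Trem2 had too few counts to enter the fit across genes described further on, and with low-gene barcodes included it entered, at a log2 fold change of 3.54 ± 0.83.

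All 3 TREM-like genes of the cluster rose in the fit, beside 46.9% of all genes tested, and lay near Trem1 on the length scale. Their median log2 fold change was 7.14, or 5.04 with those at 0 in unwounded skin set to their lower bound, beside 0.39 over all 20930 genes tested. Treml4, which encodes another DAP12-linked receptor, had no UMI in unwounded skin and 10.1 and 14.8 CPM in the wounded libraries, 1.66 and 2.63 times length-expected. Treml2 had 1 UMI in each unwounded library and 12.6 and 5.92 CPM after wounding, with ratios of 1.76 and 0.892. Treml1, known from platelets, had no unwounded UMI and 6.73 and 5.92 CPM in wounded skin, with ratios of 1.68 and 1.60. In the order of the chromosome, Trem3 was the single gene of the 6 TREM genes above the 95th percentile of reference genes.

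**Figure D1:**
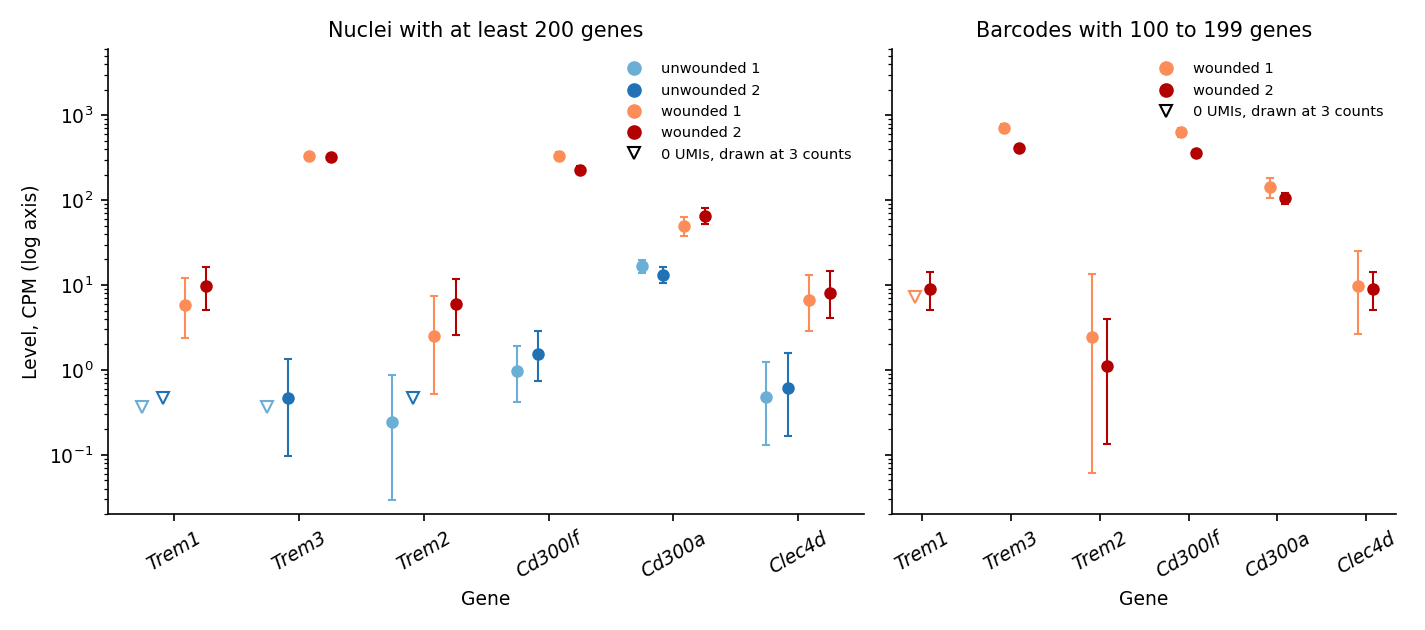
Level of each receptor gene (CPM, log axis) in the 4 libraries for nuclei with at least 200 genes (left) and in the 2 wounded libraries for low-gene barcodes (right). Points are libraries, bars are exact 95% Poisson intervals, and open triangles mark 0 UMIs, drawn at the level of 3 counts; Trem3 and Cd300lf stand between 229 and 334 CPM in wounded nuclei, while Trem1, Trem2 and Clec4d stay under 10 CPM in both panels.

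Cd300lf, an inhibitory receptor of myeloid cells that binds lipids exposed on dying cells, showed the second large difference. Its gene (chromosome 11, 115116214 to 115133992, minus strand) had 8 and 10 UMIs in the unwounded libraries, or 0.967 CPM (0.417 to 1.90) and 1.54 CPM (0.741 to 2.84). The wounded libraries held 397 and 309 UMIs, or 334 CPM (302 to 368) and 229 CPM (204 to 256). The groups did not overlap, but wounded replicate 1 was above wounded replicate 2 beyond the counting intervals. The means were 1.26 ± 0.408 and 281 ± 74.3 CPM, and the summed ratio was 228 (143 to 387). Observed over length-expected was 34.1 and 25.3, with the same 1 reference gene above it in each library.

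Cd300lf lies wholly inside Rab37, a gene of vesicle transport on the opposite strand (chromosome 11, 115091431 to 115162236). Rab37 had 0.363 and 2.01 CPM in unwounded and 69.8 and 57.0 CPM in wounded libraries, which is 1.79 and 1.58 times length-expected. Whether reads were assigned by strand is not given in the sources used here, so reads of this overlap could not be told apart by strand. Of the 60-base windows of Cd300lf transcripts, 1.60% also occurred in transcripts of other genes. These included genes of the Cd300ld group and others such as Bfar and Lzts3. The share was 2.15% for Cd300a and 0 for the other 4 members.

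Cd300a, an inhibitory receptor for phospholipids of dying cells, was the member with a clear level in intact skin. Its gene (chromosome 11, 114890041 to 114904654, plus strand) had 138 UMIs in unwounded replicate 1, 16.7 CPM (14.0 to 19.7), and 86 UMIs in unwounded replicate 2, 13.3 CPM (10.6 to 16.4). The wounded libraries held 59 and 88 UMIs, or 49.6 CPM (37.8 to 64.0) and 65.1 CPM (52.2 to 80.3). Both wounded libraries were higher than both unwounded ones, with means of 14.98 ± 2.40 and 57.4 ± 10.98 CPM and a summed ratio of 3.81 (3.07 to 4.71). Observed over length-expected was 6.16 and 8.75 in wounded skin, above the 95th percentile of reference genes. In unwounded skin, where the density of receptor genes was low, it was 155 and 88.0.

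Of the 10 other CD300 genes, 6 had enough counts to be tested, and 5 of these rose and none fell, beside 46.9% and 37.3% of all genes tested. Their median log2 fold change was 2.50, also with genes at 0 in unwounded skin set to their bound. Cd300lb, an activating receptor, rose from 8.58 and 8.18 to 33.6 and 22.2 CPM (log2 fold change 0.94 ± 0.29 SE) and was 5.26 and 3.76 times length-expected. Cd300c, an activating receptor, and Cd300e, a receptor of monocytes, had no UMI in unwounded skin. Cd300c reached 11.8 and 10.4 CPM after wounding, at least 54.2-fold higher, and Cd300e reached 8.41 and 10.4 CPM, at least 46.5-fold higher. Both lay between 1.49 and 1.98 times length-expected. Cd300lg, known from vessel lining cells, and Cd300ld rose likewise, and Cd300c2 did not pass the test. The 4 untested genes, Cd300ld2 to Cd300ld5, are near copies of each other, and counts may be split or lost between them.

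**Figure D2:**
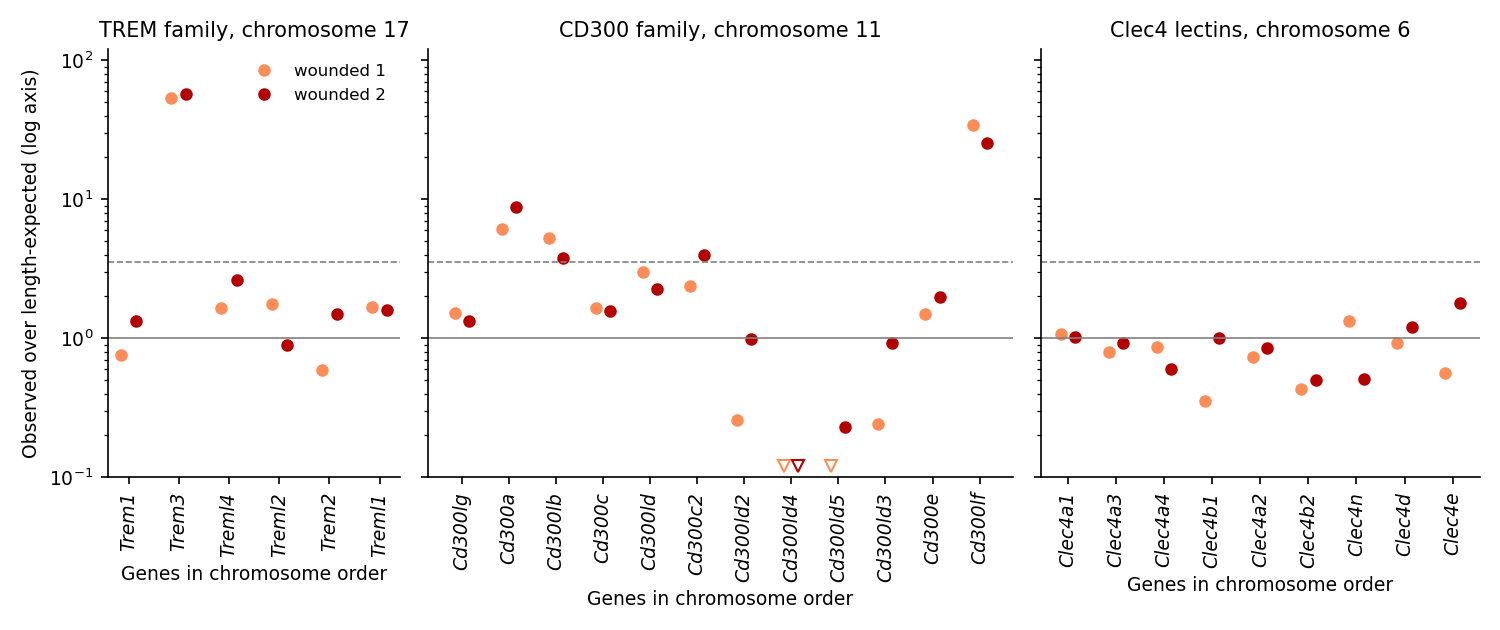
Observed over length-expected (log axis) for the TREM, CD300 and Clec4 genes in chromosome order in wounded replicates 1 and 2. The solid line is 1, the dashed line is the higher 95th percentile of reference genes (3.55), and open triangles at the lower edge mark 0 UMIs; Trem3, Cd300lf, Cd300a and Cd300lb are above the dashed line in both libraries.

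Clec4d, a C-type lectin that pairs with the Fc receptor gamma chain and binds microbial glycolipids, was low in every library. Its gene (chromosome 6, 123262111 to 123275265, plus strand) had 4 UMIs in each unwounded library, or 0.483 and 0.618 CPM. The wounded libraries held 8 and 11 UMIs, or 6.73 CPM (2.90 to 13.3) and 8.14 CPM (4.07 to 14.6). The groups did not overlap, with means of 0.551 ± 0.0950 and 7.44 ± 1.00 CPM and a summed ratio of 13.8 (5.77 to 36.4). Observed over length-expected was 0.928 and 1.22, close to the median of reference genes. Its partner Clec4e (Mincle), next to it on the chromosome, had too few counts to be tested in nuclei, with 2.52 and 7.40 CPM in wounded skin.

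Across all genes, the quasi-likelihood test of edgeR, adjusted by Benjamini-Hochberg, called 84.2% of the 20930 genes tested, 46.9% higher and 37.3% lower in wounded skin. All 5 members tested were among those called higher, and since the same contrast chose them, nothing is read from that count. Over these 20930 genes the median log2 fold change was 0.39 with TMM scaling, 0.63 with RLE size factors and 0.55 in DESeq2. DESeq2 tested 26644 genes with a median of 1.94 and called 11386 higher and 5877 lower, where edgeR called 9819 and 7810 of 20930. In edgeR, Trem3 had a log2 fold change of 9.68 ± 0.35 (SE) and Cd300lf of 7.03 ± 0.29. Clec4d had 2.94 ± 0.54 and Cd300a 1.15 ± 0.22. No fitted fold is given for Trem1, whose unwounded libraries were at 0. Without unwounded replicate 1 the value for Trem3 was 8.48, and without unwounded replicate 2, the library with its 3 unwounded UMIs, it was 12.63, which is no bound since the other stood at 0. With the length-expected counts subtracted, an alternative added after the data were seen, Trem3 stood at 11.61, Cd300lf at 8.63 and Cd300a at 2.46. Trem3, Cd300lf and Cd300a were higher in each of the 13 alternatives fitted, Clec4d in the 11 and Trem1 in the 9 in which they could be fitted.

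In order of wounded level per length, Trem3 came first and Cd300lf second in both wounded libraries, with intervals that did not meet in either. Cd300a came next in both, far from its neighbours in that order. The order among Clec4d, Trem1 and Trem2 was not resolved, since their counting intervals overlapped in both libraries.

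Low-gene barcodes held the 3 abundant members at higher levels than the nuclei analysed. In wounded replicate 1 Trem3 had 293 UMIs in these barcodes, 713 CPM (634 to 800), which is 2.18 times (1.87 to 2.54) the level in nuclei with at least 200 genes. In wounded replicate 2 it had 751 UMIs, 416 CPM (387 to 447), a ratio of 1.30 (1.15 to 1.47). Cd300lf reached 630 and 357 CPM, with ratios of 1.89 (1.61 to 2.21) and 1.56 (1.36 to 1.79). Cd300a reached 141 and 106 CPM, with ratios of 2.85 (1.95 to 4.16) and 1.62 (1.25 to 2.11). All 6 ratios were above 1 beyond counting error, and wounded replicate 1 had the higher value of each pair.

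Among the other members, Trem1 and Clec4d showed no difference from nuclei beyond counting error. Trem1 had 0 UMIs in wounded replicate 1, which allows up to 7.30 CPM, and 16 UMIs or 8.86 CPM in wounded replicate 2. Clec4d had 4 and 16 UMIs, or 9.74 and 8.86 CPM. Trem2 had 1 and 2 UMIs. Its ratio to nuclei was 0.965 (0.0184 to 12.0) in replicate 1 and 0.187 (0.0193 to 0.937) in replicate 2. The interval lay below 1 in replicate 2 only, on 2 UMIs against 8. Over the same barcodes the density of olfactory and vomeronasal receptor genes was lower, at 0.401 and 0.436 CPM per kilobase, so observed over length-expected for Trem3 was 161 and 86.1. In unwounded libraries low-gene barcodes were too few to compare, with no UMI of any member in 1 and 69 barcodes.

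Shares of barcodes with a UMI were highest for Trem3 and Cd300lf. In nuclei with at least 200 genes, Trem3 was seen in 11.4% (exact 95% binomial interval 10.2 to 12.8) and 9.09% (8.19 to 10.1) of wounded nuclei. In unwounded nuclei it was seen in 0 of 6575, which allows up to 0.0561%, and in 3 of 9001. Cd300lf was seen in 11.9% and 7.26% of wounded and in 0.122% and 0.111% of unwounded nuclei. Cd300a was seen in 2.44% and 2.35% of wounded nuclei. In unwounded nuclei its share was 1.90% in the deeper replicate 1 and 0.878% in replicate 2. After each barcode was thinned to 200 UMIs, leaving out 1 barcode of each unwounded library and 1677 and 12329 barcodes of the wounded ones, the shares were lower. Trem3 was then seen in 6.86% and 5.72% of wounded barcodes (11.2% and 8.95% of the same barcodes unthinned). Cd300a was seen in 0.402% and 0.315% of unwounded (1.90% and 0.884% unthinned) and 1.62% and 1.46% of wounded barcodes (2.67% and 2.37% unthinned).

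Some wounded barcodes held several UMIs of 1 member. Over every deposited wounded barcode, also those under 100 genes, Trem3 had 1.55 UMIs per barcode with a UMI in replicate 1 and 1.28 in replicate 2. Genes of similar total counts had medians of 1.17 and 1.07, and 14 of 617 and 16 of 708 such genes were higher than Trem3. In replicate 1, 60 barcodes held 3 or more Trem3 UMIs and together 32.5% of all Trem3 UMIs, and in replicate 2, 62 barcodes held 16.2%. The highest numbers in 1 barcode were 7 and 9. Cd300lf had 1.39 and 1.15 UMIs per positive barcode, with medians of 1.16 and 1.06 among similar genes, of which 36 of 674 and 62 of 947 were higher. Cd300a was at 1.12 and 1.03, with medians of 1.05 and 1.03, and 221 of 5201 and 2772 of 4305 similar genes were higher. Barcodes with a Trem3 UMI were also deeper, with median UMIs of 278 and 191 against 232.5 and 156 without, and the part of depth in these values was not tested.

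**Figure D3:**
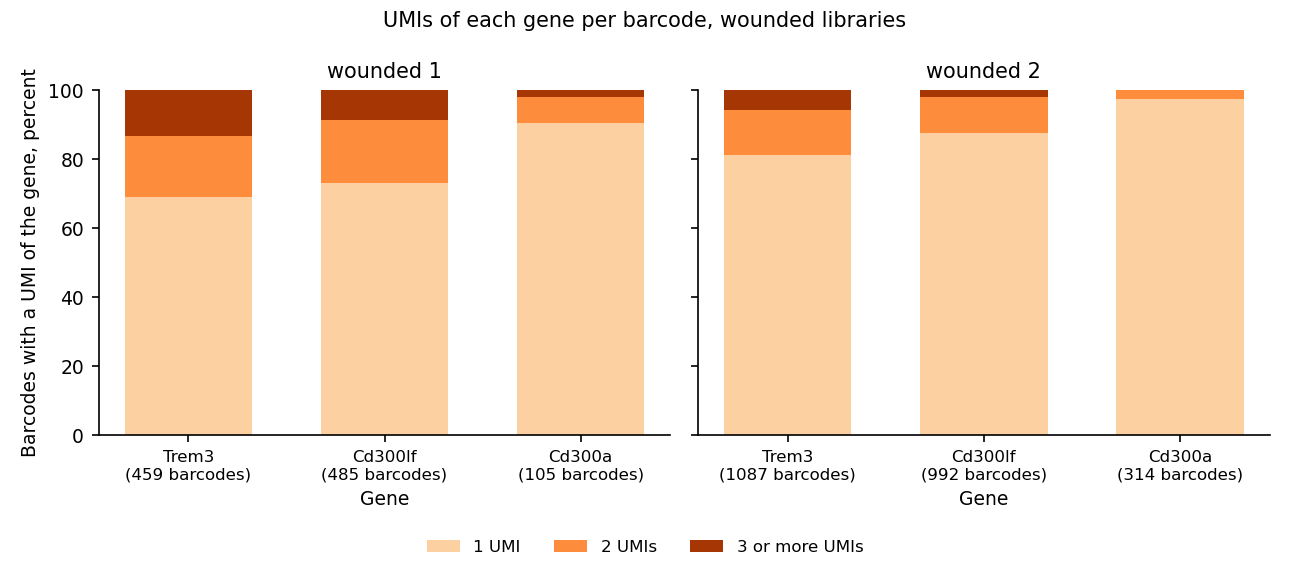
Wounded barcodes with a UMI of Trem3, Cd300lf or Cd300a, split by the number of UMIs of that gene in the barcode (percent of such barcodes, wounded replicates 1 and 2). Barcodes with 3 or more UMIs number 60 and 62 for Trem3, 41 and 20 for Cd300lf, and 2 and 0 for Cd300a.

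In wounded replicate 1, Cd300lf was seen more often in barcodes with Trem3 than in those without. Among wounded nuclei of replicate 1 with a Trem3 UMI, 20.2% (15.5 to 25.5) also had Cd300lf, against 10.8% (9.499 to 12.2) without Trem3, at median depths of 444 and 351 UMIs. In low-gene barcodes of the same library the shares were 18.8% (13.4 to 25.2) and 8.08% (6.94 to 9.34), at 181 and 179 UMIs. In replicate 2 the shares in nuclei were 8.31% (5.59 to 11.8) and 7.15% (6.31 to 8.08), with overlapping intervals. In its low-gene barcodes they were 6.80% (4.92 to 9.11) and 4.76% (4.37 to 5.17), again overlapping. The intervals were thus apart in replicate 1 and overlapped in replicate 2. Overlap of intervals does not decide whether 2 shares differ, and the difference itself was not tested.

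Barcodes were grouped into clusters without using the 6 members, separately for unwounded nuclei and for wounded barcodes of at least 100 genes. Among 31 wounded clusters, Trem3 and Cd300lf UMIs were present in every cluster. Trem3 had a median of 376 CPM over clusters, a lowest level of 238 CPM in the skeletal muscle-like cluster and a highest of 891 CPM (720 to 1090). That highest cluster was led by Cxcl3, Spp1, Ms4a8a and Cxcl2, where Cxcl2 and Cxcl3 encode neutrophil attractants, and held 1815 CPM in replicate 1 and 528 CPM in replicate 2. Its rank rested on replicate 1, since 4 other clusters were higher in replicate 2, up to 699.8 CPM. The next levels included 702 CPM in a cluster led by Rhox8, Ifi206, Oasl2, Trim25 and Tarm1, several of them interferon-induced. Cd300lf was highest in that same cluster, at 907 CPM (780 to 1049), again higher in replicate 1 (1760 CPM) than in replicate 2 (548 CPM). No wounded cluster met the marker rule for neutrophils or for monocytes and macrophages. The cluster with the highest level of neutrophil markers, 2052 CPM over 369 barcodes, was led by Col4a3 and Csf3r and held Trem3 at 520 CPM and Cd300lf at 464 CPM.

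In cell types that should lack these receptors the levels stayed well above 0. The fibroblast-like cluster, 768 and 1779 barcodes with median depths of 216 and 188 UMIs, held Trem3 at 364 CPM (286 to 456) and 304 CPM (252 to 364). Its shares of barcodes with a Trem3 UMI were 6.64% and 5.51%, against 11.04% and 6.37% in the 26 unnamed clusters together, at median depths of 239.5 and 160 UMIs. The keratinocyte-like clusters had shares of 7.63% and 4.95% and levels of 397 and 317 CPM. Cd300lf stood at 514 and 237 CPM in the fibroblast-like cluster and at 402 and 329 CPM in the unnamed ones. Its shares with a Cd300lf UMI were 10.2% and 4.50%, against 11.1% and 5.89%. How much of these counts was background was not tested, and depth differed between the clusters.

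Cd300a was more uneven. In wounded skin its highest level, 226 CPM (157 to 314), was in a cluster led by Ciita, Zfp366 and Alox5, where Ciita is the master activator of MHC class II genes. The skeletal muscle-like cluster had 223 CPM, of which 11 of 15 UMIs came from 64 barcodes of replicate 1. The fibroblast-like cluster had 75.3 CPM (54.9 to 101). In unwounded skin Cd300a was concentrated in few clusters. The dendritic and Langerhans cell-like cluster held 141 CPM in replicate 1 and 114 CPM in replicate 2, 129 CPM over both (96.8 to 168). A cluster led by Adgre1, Aoah, Adap2, Ms4a7 and Mrc1, genes of macrophages, held 118 and 75.2 CPM in replicates 1 and 2. The shares of nuclei with a Cd300a UMI were 8.91% and 6.58% in these clusters, against 0.624% in keratinocyte-like nuclei, at median depths of 625, 591 and 608 UMIs. Keratinocyte-like nuclei held 0 and 15.7 CPM and sebocyte-like nuclei 0 and 4.89 CPM. Skeletal muscle-like nuclei were between, at 27.3 and 16.2 CPM. An unnamed cluster of 3073 nuclei led by Lgr5, Aox3 and C7 held 3.90 CPM (2.08 to 6.68).

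**Figure D4:**
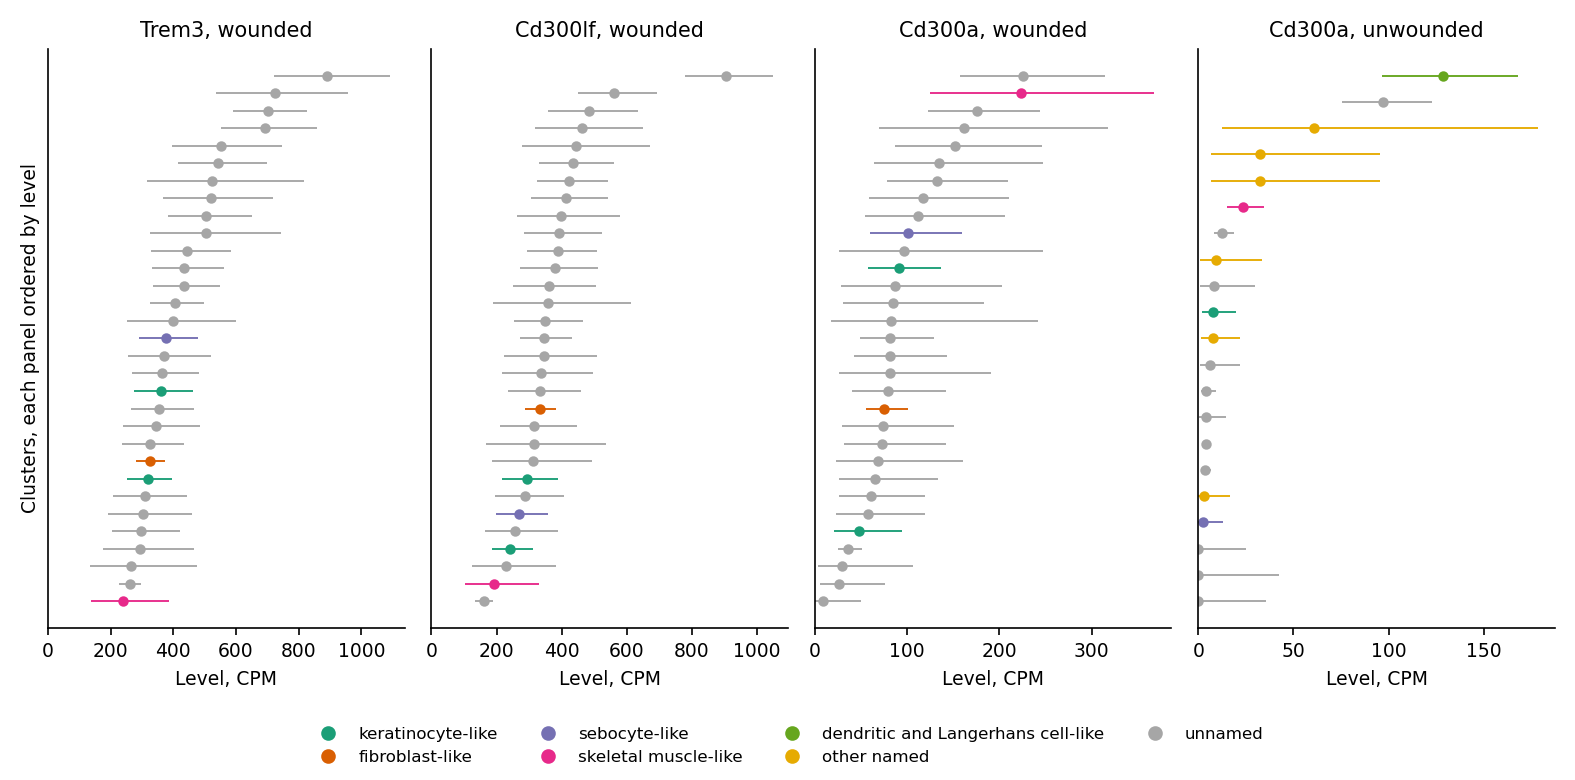
Level (CPM) of Trem3, Cd300lf and Cd300a in the 31 wounded clusters and of Cd300a in the 21 unwounded clusters of at least 50 nuclei. Each point is a cluster over both replicates with its exact 95% Poisson interval, coloured by its name where fixed markers gave one; Trem3 and Cd300lf are present throughout the wounded clusters, while Cd300a in unwounded skin is highest in the dendritic and Langerhans cell-like cluster at 129 CPM.

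Markers of other cells moved between the groups too. The 14 neutrophil markers summed to 94.1 and 96.1 CPM in unwounded and 237 and 271 CPM in wounded libraries. That was 79.9 and 58.2 times length-expected in the unwounded libraries and 2.69 and 3.33 times in the wounded ones. Of these markers 5 and 4 were at 0 in the unwounded libraries, Retnlg and Ly6g in both. None was at 0 in the wounded ones. Of all 20930 genes tested, 1372 were at 0 in unwounded skin and 45 in wounded skin. The 16 monocyte and macrophage markers went the other way, from 701 and 786 to 465 and 435 CPM. In each wounded library 1 of them was at 0 (Cd68 in replicate 1, C1qb in replicate 2). B cell markers went from 0.604 and 1.24 to 173 and 181 CPM, 1.49 and 1.69 times length-expected in the wounded libraries. T and NK cell markers went from 22.8 and 25.0 to 581 and 512 CPM, at 1.52 and 1.45 times. Endothelial markers went from 183 and 193 to 690 and 686 CPM, at 1.74 and 1.88 times. In the unwounded libraries these ratios were 0.389 and 0.569 for B cell markers. They were 4.47 and 3.49 for T and NK cell markers and 34.5 and 26.0 for endothelial markers. Fibroblast markers fell from 10166.9 and 10640.5 to 779 and 951 CPM, and skeletal muscle markers from 6258 and 5130 to 515 and 534 CPM. Csf3r, the receptor for the neutrophil growth factor, went from 5.80 and 8.96 to 77.4 and 77.0 CPM, and S100a9 from 0 and 0.463 to 23.5 and 41.5 CPM. Their part in the member levels was not tested. Within wounded libraries, barcodes with a Trem3 UMI held 1.39 times (1.07 to 1.79) the neutrophil markers of other barcodes in replicate 1 and 0.859 times (0.663 to 1.10) in replicate 2. They held fewer fibroblast markers, 0.498 times (0.415 to 0.593) and 0.741 times (0.639 to 0.855), and fewer keratinocyte markers, 0.571 and 0.683 times. Monocyte and macrophage markers were at 1.01 and 0.931 times, within counting error of 1. Barcodes with a Cd300a UMI held 1.55 times (0.949 to 2.39) and 2.40 times (1.75 to 3.22) the dendritic and Langerhans cell markers of other barcodes. Their sebocyte markers were higher still in replicate 1, at 2.54 times (1.87 to 3.39), but at 0.833 times (0.514 to 1.28) in replicate 2. Barcodes with Cd300lf held 1.30 times (1.04 to 1.60) the monocyte and macrophage markers in replicate 1 and 0.996 times (0.794 to 1.23) in replicate 2.

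The signalling partners were split. Of 11 adaptor and kinase genes 10 were tested, of which 4 rose, 1 fell and 5 did not pass. Of all genes tested, 46.9% rose and 37.3% fell. The median log2 fold change of the 10 was 0.30, beside 0.39 over all genes tested. Fcer1g, the gamma chain used by Clec4d and other activating receptors, rose from 16.4 and 24.6 to 176 and 165 CPM (log2 fold change 2.27 ± 0.21, adjusted p = 3.1e-06 by edgeR) and stood at 66.5 and 67.6 times length-expected. The Src family kinase Lyn rose from 113 and 98.2 to 309 and 280 CPM (0.69 ± 0.13). Plcg2, a phospholipase downstream of Syk, rose with a log2 fold change of 0.86 ± 0.17, at 1.14 and 1.21 times length-expected. Bcl10, which links CARD9 to NF-kappaB, fell from a mean of 16.5 to 4.42 CPM (-2.70 ± 0.38).

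For the adaptor of Trem1, Trem2 and Trem3 the call depended on the barcodes used. Tyrobp had 2.42 and 2.16 CPM in unwounded and 7.57 and 6.66 CPM in wounded libraries, a log2 fold change of 0.84 ± 0.44 with adjusted p = 0.099 by edgeR. With low-gene barcodes included, it passed the test, at 0.92 ± 0.41 and adjusted p = 0.043 by edgeR. It stood at 3.59 and 3.42 times length-expected. Hcst, the other small adaptor of this kind, had 6 and 4 UMIs in the unwounded and 0 in the wounded libraries and was not tested. Syk and Inpp5d, a lipid phosphatase, did not pass the test, and their fitted sign depended on the scaling. The tyrosine phosphatases of inhibitory receptors fell, by more in the TMM-scaled fit than in CPM. Ptpn6 went from 9.67 and 12.97 to 7.57 and 7.40 CPM (log2 fold change -1.37 ± 0.38). Ptpn11 went from 58.5 and 43.5 to 36.2 and 33.3 CPM (-1.34 ± 0.20). Both were near length-expected in wounded skin, between 0.763 and 1.08.

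Other receptors of the same kinds moved in both directions. Of 14 lectin genes tested near Clec4d or the Dectin-1 cluster, 7 rose and 3 fell, with a median log2 fold change of 1.57. Of all genes tested, 46.9% rose and 37.3% fell, with a median of 0.39. Clec5a, a DAP12-linked lectin, rose from 0.121 and 0.618 to 15.1 and 15.5 CPM (4.61 ± 0.58), at 2.51 and 2.79 times length-expected. Clec2d, a lectin that is a ligand of an NK cell receptor, fell from a mean of 297 to 16.6 CPM (-4.92 ± 0.23). Clec1b, a platelet and myeloid receptor, rose from 0.0772 to 9.76 CPM in the mean, with ratios of 1.27 and 1.81.

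Of 19 paired and Fc receptors tested, 8 rose and 7 fell, with a median of 0.79. These shares, 42.1% and 36.8%, were near the 46.9% and 37.3% of all genes tested. Fcgr4, an activating Fc receptor of neutrophils and monocytes, rose from 0.0604 ± 0.0855 to 19.6 ± 1.58 CPM (6.93 ± 0.65), at 3.10 and 3.75 times length-expected. The inhibitory receptors Fcgr2b and Sirpa fell, with log2 fold changes of -2.06 ± 0.28 and -1.88 ± 0.20, as did Lilr4b (-3.45 ± 0.43). Sirpb1a, from an activating group of close relatives between which counts may be split, rose (3.93 ± 0.44) but lay at 0.584 and 0.689 times length-expected.

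Reported ligands of these receptors were split. Pglyrp1, a neutrophil granule protein reported to bind Trem1, rose from 1.40 ± 1.10 to 24.0 ± 0.492 CPM (3.23 ± 0.46), at 2.31 and 2.43 times length-expected. Clu, reported for Trem2, rose with a log2 fold change of 1.11 ± 0.40, while Apoe (-3.26 ± 0.47) and Lgals3 (-3.33 ± 0.21) fell and Hmgb1 did not pass the test. Of 10 genes of Trem2-associated macrophages, 7 fell and 2 rose, beside 37.3% and 46.9% of all genes tested. Their median log2 fold change was -1.59. Spp1, which encodes osteopontin, rose from 0.138 ± 0.0237 to 46.2 ± 2.48 CPM, 14.7 times length-expected in both wounded libraries. The falls included Gpnmb (-2.02 ± 0.18), Cd9 (-1.44 ± 0.17) and Ctsb (-1.97 ± 0.24).

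Over these lists together, 31 of 68 tested genes rose (45.6%) and 20 fell (29.4%), beside 46.9% and 37.3% of all genes tested. Of the 31 that rose, 4 were above the 95th percentile of reference genes in both wounded libraries. They were Fcer1g, Spp1, Cd300lb and Lyn. Of all 9819 genes that rose, 688 were above it.

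**Figure D5:**
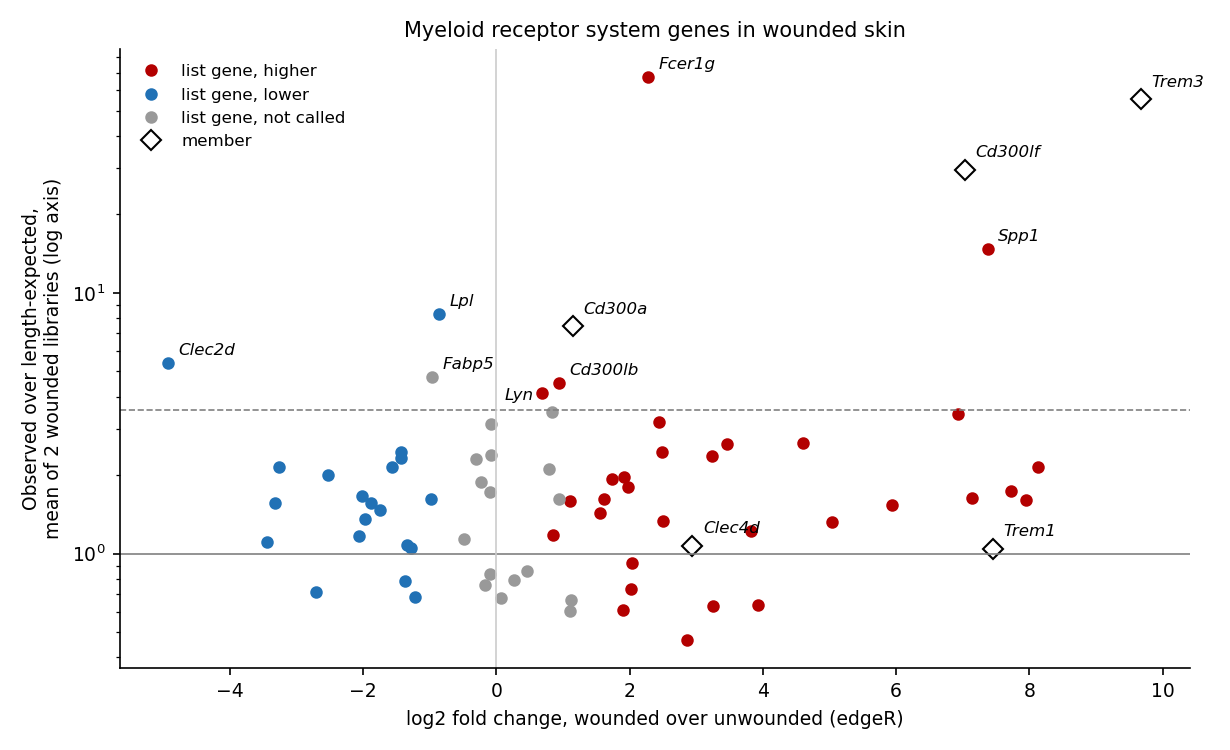
Fitted log2 fold change of 5 receptor genes (open diamonds) and 68 list genes (points, coloured by call; fits of genes at 0 in unwounded skin depend on the prior count) against observed over length-expected, the mean of 2 wounded libraries (log axis). The solid line is 1 and the dashed line is 3.55; Fcer1g, Trem3, Cd300lf and Spp1 stand apart at the top, and most genes that rose lie near 1.

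Likeness of pattern was read as Pearson's r of log2(CPM + 1) over 93 cluster-by-library sums, which share libraries, depth and the group difference. The genes most like Trem3 were Cd300lf (r = 0.976), Cntn6 (0.974) and Gria1 (0.973), and those most like Cd300lf after Trem3 were Nrg3 (0.970) and Ndst4 (0.969). Cntn6, Gria1 and Nrg3 are long genes of the nervous system. Over the 59 wounded sums alone, Cd300lf was still the gene most like Trem3, at r = 0.615, and Nkain2 was also among the first, at 0.542. For Cd300lf the first there were Nrros (0.741), Ptprj (0.625) and Tfec (0.616). For Cd300a the first over all sums were Slc7a8 (0.738), Ms4a8a (0.697) and Rfx4 (0.695). Over the 34 unwounded sums they were Tifab (0.774), Cd300c2 (0.752) and Traf1 (0.728). Clec4d had 46 UMIs in the 93 sums, over which the most alike gene, Olfr750, reached r = 0.572. Over the 59 wounded sums the first was Stambp (0.610).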

How the data were processed

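Single-nucleus RNA of 4 back skin libraries was analysed, 2 per group, grouped by the sample titles. The authors deposited unnormalized counts of UMIs for each barcode, with Cell Ranger 5.0.1 named per the file headers. The build was GRCm38, per the submitters' processing notes. Libraries used the 10x Genomics Single Cell 3' protocol, per the labels' protocols. How introns, strand and barcodes were handled, and the annotation release, is not given in the sources used here. Coordinates and gene lengths came from GENCODE vM21 (GRCm38). Members, lists and alternatives were chosen with earlier results of these data known.

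Nuclei had at least 200 genes, at most 5% mitochondrial counts and were not among the highest Scrublet scores (0.8% per 1000 barcodes, scanpy 1.11.5), which removed 388, 769, 88 and 624, since the automatic threshold marked 0, 0, 11 and 0. They held 8275090, 6475744, 1189262 and 1350822 UMIs. A level of 0 allows 3 counts, or 0.363, 0.463, 2.52 and 2.22 CPM. Floors, Poisson and binomial intervals cover counting error only.

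Counts were summed per library and fitted with edgeR 4.0.16 (filterByExpr, TMM, glmQLFit, glmQLFTest, threshold 0.05 after Benjamini-Hochberg adjustment), a fit first tested on simulated data. Clusters used 2000 variable genes, 30 components, 15 neighbours and Leiden resolution 1. A cluster was named from fixed marker lists when at least 3 markers and 40% of a list lay at least 2-fold above the rest, clearly more than of any other list, and 1 was among the leading genes, with limits chosen after the data were seen. Named genes were the members, the 20 list genes of smallest p, list genes with at least 10 UMIs in barcodes holding a member, and the 3 genes most like each member. Some genes that this rule names are not reported here. Other genes were named for their role, after their values were seen. Of 6 members, 5 had a RefSeq promoter, and Trem3 was the member without one.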

Additional observations from a re-analysis of the deposited data

Results flagged for a closer look

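Wounded replicate 2 held 1937 barcodes under 100 genes, which were left out of the main comparison and entered the count of UMIs per barcode and the alternative fit over every deposited barcode. In them Trem3 stood at 423 CPM (exact 95% Poisson interval 341 to 520, 91 UMIs), Cd300lf at 558 CPM (463 to 667, 120 UMIs) and Cd300a at 88.4 CPM (53.2 to 138, 19 UMIs). These are called out because the signal lies in barcodes outside the main measurement and above the 14.0 CPM that a count of 0 allows there. The unwounded libraries held no such barcodes, so there was no control level. Wounded replicate 1 held 12 of them, with 2 Trem3 UMIs.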

How the results depend on the processing

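With the length-expected counts subtracted, an alternative added after the data were seen, 5283 genes in place of 9819 and 15 list genes in place of 31 were called higher. Over fits without 1 library, genes called higher ranged from 7628 to 9335, genes lower from 6612 to 7549, list genes higher from 22 to 31 and list genes lower from 18 to 22. The other 50 values of these counts stayed within 1.5 times the main count, and none reversed. Replicate numbers do not pair the libraries, which came from different mice, and deviations of same-numbered libraries had r = 0.0365 over 20930 genes. With the replicate number as a block, 9721 genes rose and 7858 fell, and 31 list genes rose and 21 fell. Log2 fold changes ran from 8.48 to 12.63 for Trem3, 6.60 to 8.63 for Cd300lf and 0.90 to 2.46 for Cd300a over 13 alternatives, and from 2.66 to 3.25 for Clec4d over the 11 in which it could be fitted. Where a fit left out 1 library, the lone library of its group was assumed to vary like the other group. A coarser clustering (resolution 0.5) put the highest Cd300lf cluster at 763 CPM, and adding the 6 members to the genes clustered put the highest Trem3 cluster at 2748 CPM and that of Cd300lf at 1466 CPM. Depth limits Trem1, Trem2 and Clec4d, which had at most 13 UMIs in any library's nuclei.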
